A study of Mus musculus with 2 samples.

Results

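The genes described here were 10 regulators of alternative splicing that are known for tissue-restricted roles: Mbnl1, Mbnl2, Mbnl3, Celf1, Celf2, Rbfox1, Rbfox2, Rbm24, Esrp1 and Nova1. They were taken by symbol from the 32285 genes in the count table, and all 10 were found as 1 entry each. Their UMIs (unique molecular identifiers, 1 per captured RNA molecule) were counted in single cells of mouse embryos at E14, in 1 library of Het/tdT embryos and 1 of MKO/tdT embryos. Het/tdT embryos (SRSF2f/w/Myf5-Cre/tdT) carried 1 floxed and 1 wild-type allele of Srsf2, and MKO/tdT embryos (SRSF2f/f/Myf5-Cre/tdT) carried both alleles floxed. Both carried Myf5-Cre, a Cre recombinase under the promoter of the myogenic factor Myf5, and the Rosa26-LSL-tdTomato reporter, which Cre turns on. Cells came from trunks and limbs and were sorted on tdTomato, so every level below is a level inside that gate. The sources do not say how many embryos were pooled.

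The library names follow the headings of the run summaries, matched by the number of barcodes in each. The titles of the deposited samples give the opposite assignment, so every direction between the genotypes below rests on this choice and would turn with it. Orders of classes and stages within 1 library would not turn. Srsf2, the targeted gene, was at 219 CPM (UMIs of the gene per 1000000 UMIs of the same cells) in Het/tdT and 153 CPM in MKO/tdT, and it was lower in MKO/tdT in 8 of 8 cell classes. Which part of Srsf2 lies between the loxP sites was not given in the sources used here, so 3′ counts may not report the deletion. The cell filter kept 12523 Het/tdT cells (median depth 10751 UMIs) and 10345 MKO/tdT cells (9480 UMIs). The libraries shared 74 barcode sequences. With 1 library per genotype no test between genotypes was possible, and all 95% intervals cover counting error only.

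Splicing regulators bind short motifs in pre-mRNA near alternative exons and set whether those exons are kept. Mbnl (muscleblind-like) and Celf proteins act in opposite directions on many exons that switch during muscle and heart development, and loss of free Mbnl protein to expanded repeats underlies myotonic dystrophy. Rbfox proteins bind UGCAUG and act in neurons and muscle, Rbm24 is a regulator of muscle exons, Esrp1 of epithelial exons and Nova1 of neuronal exons. The counts report how much RNA of each regulator was present. They do not show protein or the splicing of any target. In the GENCODE annotation of GRCm38 the other 8 genes lie at chr3:60472830-60629750 (Mbnl1), chrX:51117269-51206532 (Mbnl3), chr2:90940382-91019497 (Celf1), chr2:6539694-7509563 (Celf2), chr16:5885355-7411526 (Rbfox1), chr15:77078990-77307004 (Rbfox2), chr4:11331933-11386783 (Esrp1) and chr12:46694517-46818929 (Nova1), besides Rbm24 and Mbnl2, whose positions are given with their promoters.

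Cells were given a class where they held a UMI of at least 3 of 6 marker genes and at least 2 more markers than for any other class. No regulator is among the markers. The class names follow the study's usage: SKM-like (skeletal muscle lineage), Mesen-like (mesenchymal), Chon-like (cartilage), Neu-like (neuronal), Sch-like (Schwann lineage), Endo-like (endothelial), Immu-like (immune) and Epi-like (epidermal). These 8 classes had at least 50 cells in both libraries. Bone, pericyte, erythroid and neural progenitor classes, the rest of the 12 that were set, fell short of this. Another 7498 cells (32.8%) stayed unclassed. SKM-like cells numbered 1422 (11.4%) in Het/tdT and 71 (0.686%) in MKO/tdT, Mesen-like cells 4135 and 2638, and Chon-like cells 1659 and 1540. Neu-like cells numbered 496 and 901, Endo-like 347 and 868, Immu-like 117 and 559, Epi-like 95 and 123, and Sch-like 117 and 89. Leading genes that were not markers fitted the names, such as Actc1 and Ttn in SKM-like cells and Sfn and Krtdap in Epi-like cells. Other leading genes, such as Myog, Krt14 and Krt5, were themselves markers that set the class. The Immu-like class was led by mast-cell genes (Cma1, Cpa3), and the 10 leading genes of the Sch-like class included Dct and Pmel, genes of melanocytes.

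The promoters of a muscle gene that was higher and of a gene that was lower in differentiating muscle cells are shown because the results turn on both. The windows are from RefSeq (GRCm38.p6) and run from 250 bases before to 50 bases after the gene's start, where 8 of the 10 regulators had a window. Rbm24 lies on chr13:46418434-46431095 (plus strand, GRCm38), and its window is chr13:46418050-46418349, set on a RefSeq start upstream of the annotated gene start. Mbnl2 lies on chr14:120275669-120431697 (plus strand), and its window is chr14:120275419-120275718. Capitals mark the E-box CANNTG, the motif bound by Myod1, Myog and related factors, which reads alike on both strands.
Rbm24: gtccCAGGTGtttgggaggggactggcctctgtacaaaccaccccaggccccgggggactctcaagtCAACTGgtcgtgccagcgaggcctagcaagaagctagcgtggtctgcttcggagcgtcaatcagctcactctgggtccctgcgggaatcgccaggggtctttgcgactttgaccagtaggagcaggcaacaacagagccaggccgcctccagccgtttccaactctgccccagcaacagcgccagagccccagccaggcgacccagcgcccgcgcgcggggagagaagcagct
Mbnl2: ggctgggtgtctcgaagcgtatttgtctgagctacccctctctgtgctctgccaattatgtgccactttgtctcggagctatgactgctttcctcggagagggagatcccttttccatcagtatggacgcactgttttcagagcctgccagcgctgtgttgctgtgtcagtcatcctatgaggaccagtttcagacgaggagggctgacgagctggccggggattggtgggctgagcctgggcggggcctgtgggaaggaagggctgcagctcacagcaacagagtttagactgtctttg
The Rbm24 window held 2 E-boxes and the Mbnl2 window held 0. Of all 32851 promoter windows of this length, 72.3% held at least 1 and 39.6% at least 2, so a match is common and is no evidence of binding.

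Rbm24 was the regulator of muscle cells. In SKM-like cells it was at 561 CPM in Het/tdT (551 to 571, from 12191 UMIs) and 617 CPM in MKO/tdT (573 to 664, from 720 UMIs). In each of the 7 other classes it was at or below 30.0 CPM in both libraries. The small pericyte class of Het/tdT had 33.8 CPM of Rbm24, from 30 UMIs. Unclassed cells had 85.8 CPM of it in Het/tdT and 13.3 CPM in MKO/tdT, beside 80.3 and 9.19 CPM of Myog. Rbm24 stood sixth among all genes by its fold in SKM-like cells over the remaining cells. After each cell was thinned to 2000 UMIs, 57.0% (54.4 to 59.6) of SKM-like cells of Het/tdT held an Rbm24 UMI, and 69.0% (56.9 to 79.5) of those of MKO/tdT, while in the other classes the highest share was 5.80%, in Neu-like cells of Het/tdT. Before thinning the SKM-like shares were 89.5% and 93.0%, at a median depth of 14351 and 16022 UMIs per cell.

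Rbfox1, Nova1 and Esrp1 each had 1 class well above the other 7 in level. Rbfox1 in Neu-like cells was at 114 CPM (104 to 125) in Het/tdT and 99.3 CPM (92.6 to 106) in MKO/tdT, and in every other of the 8 classes it was at or below 2.76 CPM. Nova1 in Neu-like cells was at 42.3 CPM (36.3 to 49.2) and 41.7 CPM (37.4 to 46.3). The next class for Nova1, Sch-like, had 3.22 and 8.89 CPM from 3 and 7 UMIs. Esrp1, which directs epithelial exon choice, was at 65.9 CPM (53.7 to 80.1) in Epi-like cells of Het/tdT and 64.2 CPM (54.9 to 74.5) in MKO/tdT, against at most 3.25 CPM in the other 7 classes. Nova1 and Esrp1 thus had nearly the same top level in both libraries. Rbfox1 was lower in Neu-like cells of MKO/tdT by less than 1.5-fold, with a log2 ratio of -0.21 (-0.37 to -0.04) over Het/tdT.

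Esrp1 also appeared in a subset of Immu-like cells. A UMI of Esrp1 was found in 25 of 168 Immu-like cells with a UMI of Cd3g, a T-cell receptor subunit (14.9%, 9.87 to 21.2), and in 3 of 508 without one (0.591%, 0.122 to 1.72). Median depths were 15329 and 13857.5 UMIs. Of the 93 cells with both Cd3g and the adhesion gene Epcam, 19 (20.4%, 12.8 to 30.1) held Esrp1. By library, the Cd3g cells with Esrp1 were 24 of 148 in MKO/tdT and 1 of 20 in Het/tdT. These genes were chosen after the Esrp1 values were seen, Epcam is itself an Epi-like marker, and the part of cell doublets was not tested.

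Celf2 was highest in muscle, Schwann-lineage and neuronal cells, and Rbfox2 in neuronal cells, followed by muscle and mesenchymal cells. Celf2 was at 349 CPM (341 to 357) and 288 CPM (258 to 321) in SKM-like cells, 343 and 286 CPM in Sch-like cells and 291 and 216 CPM in Neu-like cells, and the ranges of these neighbours overlapped over the libraries. It was lowest in Chon-like cells, at 16.8 CPM (15.1 to 18.6) and 7.81 CPM (6.57 to 9.22). Endo-like (36.4 and 40.3 CPM) and Epi-like cells (37.2 and 38.0 CPM) were low in Celf2 as well. Rbfox2 was highest in Neu-like cells, at 252 CPM (237 to 268) and 216 CPM (206 to 227). SKM-like cells (139 and 146 CPM) and Mesen-like cells (141 and 133 CPM) followed with overlapping ranges, and Immu-like cells were lowest, at 10.6 and 9.42 CPM. Rbfox2 was also low in Epi-like (39.2 and 33.6 CPM) and Endo-like cells (44.9 and 41.0 CPM). Sch-like cells had 67.6 and 58.4 CPM of it. Celf2 overlaps 2 other counted genes on its own strand and Rbfox1 overlaps 1, so reads there could be split between entries.

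Celf1 and the Mbnl genes were found in each of the 8 classes. Celf1 was highest in SKM-like cells (146 CPM, 141 to 151, and 152 CPM, 130 to 176) and lowest in Chon-like cells (60.4 and 52.7 CPM), which overlapped with Immu-like cells. Mbnl1 had almost the opposite order, with Chon-like cells at 228 CPM (221 to 234) and 214 CPM (207 to 221), Immu-like cells at 209 and 174 CPM, and SKM-like cells last at 65.9 and 56.6 CPM, with a range that overlapped that of Neu-like cells. Mbnl2 was highest in Sch-like cells, at 428 CPM (387 to 472) and 555 CPM (504 to 609), and lowest in SKM-like cells (124 and 135 CPM) and Immu-like cells (137 and 122 CPM), whose ranges overlapped. Mbnl3 was low throughout, from 18.9 and 18.6 CPM in Epi-like cells to 2.95 and 2.08 CPM in Neu-like cells. In SKM-like cells both Celf genes were therefore at their highest, and Mbnl1 and Mbnl2 at their lowest, of the 8 classes by the mean of both libraries.

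**Figure D1:**
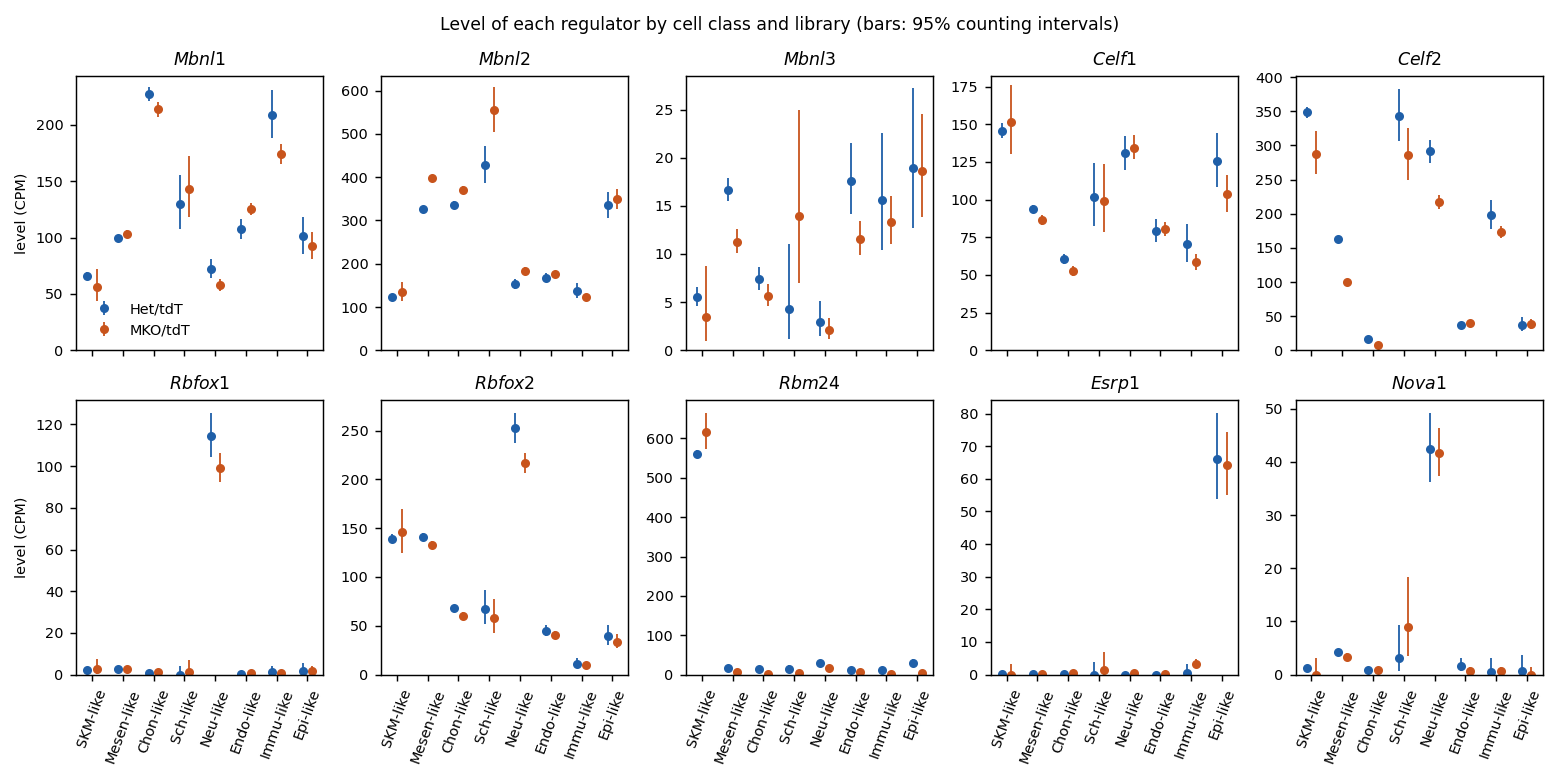
Level of each regulator (CPM of summed UMIs, y axis, each panel with its own scale from 0) in the 8 classes with at least 50 cells in both libraries. Points are Het/tdT (blue) and MKO/tdT (orange) with 95% Poisson intervals for counting error. Rbm24 stands alone in SKM-like cells (561 and 617 CPM), Rbfox1 and Nova1 in Neu-like cells and Esrp1 in Epi-like cells, while Mbnl1, Mbnl2 and Celf1 have no class near 0.

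A list of 24 related regulators was read in the same way. By the mean of both libraries, 15 of them had their highest level in Neu-like cells, among them Celf4 (486 and 395 CPM), a neuronal Celf, and Elavl3 (372 and 326 CPM), a neuronal RNA-binding protein. Rbm20, a regulator of titin exons, was highest in SKM-like cells (11.4 and 11.1 CPM), Esrp2 in Epi-like cells (24.2 and 16.8 CPM), Qk in Sch-like cells (845 and 820 CPM) and Rbpms in Endo-like cells (267 and 273 CPM). For 18 of the 24, the lower of the 2 library values of the top class was at least 2-fold above the higher value of the next class. The shares of all genes that peak in Neu-like cells or clear this 2-fold limit were not computed. Both counts therefore lack a background. Ptbp1, a repressor of neuronal exons, was nearly even between Mesen-like (152 and 165 CPM) and Endo-like cells (152 and 158 CPM).

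Genes with the most alike pattern were ranked by Pearson's r of log2(CPM + 1) over 17 class and library pairs, among 14413 genes with at least 200 UMIs, leaving out class markers. The 3 most alike were Myl1, Mrln and Fitm1 for Rbm24 (r = 0.957, 0.951 and 0.951), all expressed in muscle. Spint1 and Fgfbp1, both expressed in epithelia, were among those for Esrp1 (r = 0.983 and 0.983), and Lingo2 and Miat among those for Nova1 (0.972 and 0.969). For Rbfox1 they were Celsr3, Olfm3 and Gbx1 (0.976, 0.972 and 0.968). They were Hnrnpa1, Luc7l3 and Sumo3 for Celf1 (0.947, 0.923 and 0.917), Stk38, Cir1 and Cep44 for Celf2 (0.913, 0.902 and 0.895), and Slc25a4, H2afy2 and Arxes2 for Rbfox2 (0.958, 0.957 and 0.946). For Mbnl1 they were Slc35d1, Arhgef1 and Fam129b (0.911, 0.911 and 0.909), for Mbnl2 Sertad2, Lrp6 and Gm15787 (0.949, 0.932 and 0.915), and for Mbnl3 Tmed5, Nr3c1 and Zfp36 (0.870, 0.855 and 0.851). The pairs share libraries and classes and include the pericyte class of Het/tdT, and r is given as a description.

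Within the muscle lineage, cells early and late in differentiation were compared. Pax7 marks muscle progenitors and Myog marks committed, differentiating cells, so SKM-like cells with a Pax7 UMI and no Myog UMI (Pax7-positive, 300 cells in Het/tdT) were set against those with at least 5 Myog UMIs and no Pax7 UMI (Myog-high, 621 cells). A gene was counted as past the fold at 1.5-fold or more either way, with at least 50 UMIs in both groups together. In Het/tdT, 6 of the 7 regulators with enough UMIs were past the fold, 4 higher and 2 lower in Myog-high cells. The stages differed widely, with 40.4% of all 9371 genes past the same fold, and this share is the background for that count. The median log2 ratio was 0.70 over the 7 regulators and -0.17 over all genes.

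Rbm24 had the largest of these differences, from 103 CPM (94.1 to 113) in Pax7-positive to 908 CPM (888 to 928) in Myog-high cells, a log2 ratio of 3.14 (3.01 to 3.27). Rbfox2 was at 93.3 CPM (84.8 to 102) and 189 CPM (180 to 198), Celf1 at 101 and 172 CPM, and Celf2 at 260 and 423 CPM, with log2 ratios of 1.02 (0.86 to 1.17), 0.78 (0.63 to 0.93) and 0.70 (0.61 to 0.80). Mbnl2 went the other way, from 186 CPM (174 to 198) to 75.6 CPM (69.9 to 81.6), a log2 ratio of -1.30 (-1.44 to -1.15). Mbnl3 was lower as well, at 5.91 and 2.54 CPM, but on 28 and 22 UMIs. Mbnl1 was at 70.5 and 57.8 CPM, a log2 ratio of -0.29 (-0.49 to -0.08), short of the fold. Differentiating muscle cells thus held more RNA of the Celf genes and less of Mbnl2 per total RNA than progenitors.

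The MKO/tdT library held only 11 Pax7-positive and 41 Myog-high cells. There 5 regulators had enough UMIs and 3 were past the fold, against a background of 34.6% of 2109 genes. Rbm24 was at 249 CPM (181 to 333) and 871 CPM (800 to 947), with a log2 ratio of 1.81 (1.37 to 2.28) whose interval lies below that of Het/tdT. With classes set at 2 markers and a lead of 1 that ratio was 2.42, outside this interval. Celf1 was at 99.4 and 191 CPM (0.94, 0.22 to 1.74) and Mbnl2 at 249 and 106 CPM (-1.23, -1.80 to -0.65). Celf2 (232 and 342 CPM) and Rbfox2 (116 and 170 CPM) were higher in Myog-high cells by less than the fold, with log2 ratios of 0.56 (0.08 to 1.07) and 0.56 (-0.13 to 1.30). These 5 directions were those of Het/tdT, but Rbfox2 turned to -0.31 when cells were thinned to 2000 UMIs. The Rbm24 value of the Pax7-positive cells rests on 45 UMIs in 10 of 11 cells, with a median of 3 and a range of 0 to 11 per cell, while Het/tdT cells had a median of 1 and a range of 0 to 10.

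The steps between these ends differed by gene. Over SKM-like cells of Het/tdT with 0, 1 to 4, 5 to 19 and 20 or more Myog UMIs (324, 314, 439 and 345 cells), Rbm24 was at 105, 267, 850 and 934 CPM. Celf1 was already higher in cells with 1 to 4 Myog UMIs, at 99.1, 135, 166 and 177 CPM. Rbfox2 was level over the first steps and higher after them, at 93.6, 87.7, 169 and 197 CPM. Celf2 was higher at each step, at 261, 295, 371 and 455 CPM. Mbnl2 was at 181 and 169 CPM in the first and second step and at 84.3 and 74.8 CPM in the later steps. In Het/tdT the shift of Rbfox2 and Mbnl2 thus fell between the same steps. In MKO/tdT, where the steps held 13, 10, 19 and 29 cells, Rbm24 was at 235, 215, 604 and 939 CPM. There Mbnl2 was at 258 CPM (195 to 336) in cells without Myog UMIs and already at 90.7 CPM (51.8 to 147) in those with 1 to 4, then at 137 and 94.7 CPM, while Rbfox2 was at 108, 85.0, 144 and 185 CPM. The Rbm24 level at 5 to 19 Myog UMIs (518 to 700) was below that of Het/tdT (827 to 873), and at 20 or more the intervals overlapped.

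**Figure D2:**
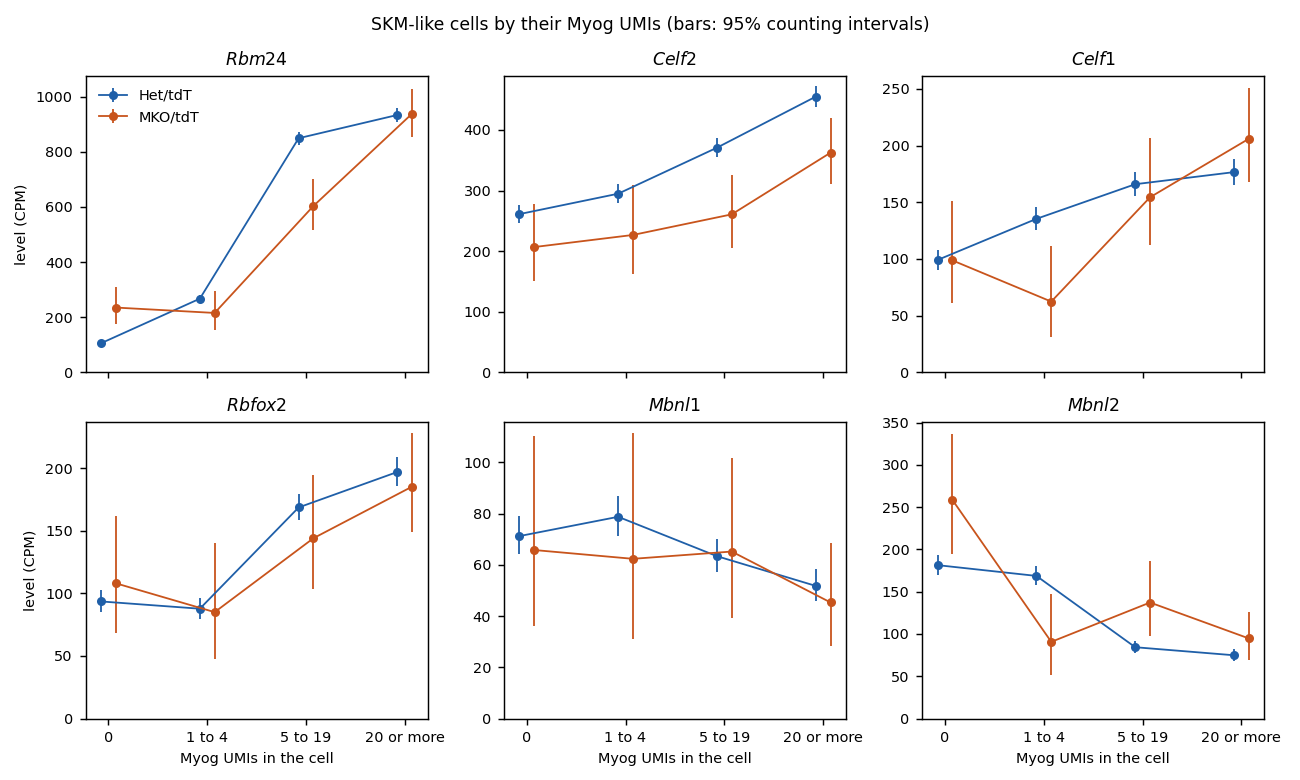
Level (CPM, y axis from 0) of 6 regulators in SKM-like cells split by the Myog UMIs in the cell (x axis), for Het/tdT (blue) and MKO/tdT (orange) with 95% counting intervals. Rbm24, Celf2, Celf1 and Rbfox2 are highest and Mbnl2 is low where Myog is high in Het/tdT. The wide orange intervals reflect steps of 10 to 29 cells.

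Of the 24 related regulators, 12 had enough UMIs in the Het/tdT comparison of the stages. Past the fold, 3 were higher and 6 lower in Myog-high cells, against a background of 40.4% of 9371 genes. Their median log2 ratio was -0.53. The 3 higher were Rbm38 (8.45 and 30.3 CPM), Msi2 (77.7 and 261 CPM) and Qk (222 and 410 CPM), the last a splicing regulator of muscle and glia. The 3 lowest ratios were those of Rbpms (-2.11, on 40 and 17 UMIs), Celf4 (from 12.5 to 3.11 CPM) and Ptbp1 (-1.60, from 92.5 to 30.5 CPM).

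Between the libraries, over all kept cells, 4 of 10 regulators were past the fold, against 23.0% of 17243 genes. Celf2 was at 162 CPM (160 to 164) in Het/tdT and 83.2 CPM (81.6 to 84.8) in MKO/tdT, and Rbm24 at 117 and 14.3 CPM, with log2 ratios of MKO/tdT over Het/tdT of -0.96 and -3.03. Rbfox1 (6.10 and 10.2 CPM) and Esrp1 (0.924 and 2.61 CPM) were higher in MKO/tdT, 1.67-fold and 2.83-fold. The classes made up unequal shares of the libraries, which moves with these values. Of all Rbm24 UMIs, SKM-like cells held 68.9% in Het/tdT and 41.0% in MKO/tdT, and unclassed cells held 23.4% and 29.1%. Neu-like cells, 3.96% and 8.71% of the kept cells, held 50.3% and 64.6% of all Rbfox1 UMIs. Unclassed cells held 103 of the 321 Esrp1 UMIs of MKO/tdT, and 50 of the 62 unclassed cells with Esrp1 in both libraries also held Epcam. Among the related list, 14 were higher and 1, Rbm20, was lower (log2 ratio -2.36). Srrm4, Khdrbs2 and Rbfox3, all neuronal, had the highest ratios (1.34, 1.32 and 1.17).

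Within SKM-like cells Rbm24 and Celf2 differed by less than the fold, Rbfox1 had 3 UMIs in MKO/tdT with an interval of the log2 ratio from -2.14 to 1.82, and Esrp1 had 0 UMIs there. Of 8 regulators with enough UMIs 1 was past the fold, Mbnl3, on 4 UMIs in MKO/tdT and with an interval from -2.59 to 0.71, and the background was 23.2% of 10441 genes. The log2 ratio was 0.14 (0.03 to 0.25) for Rbm24, 0.06 (-0.17 to 0.28) for Celf1, 0.07 (-0.17 to 0.29) for Rbfox2, 0.11 (-0.13 to 0.35) for Mbnl2 and -0.22 (-0.60 to 0.14) for Mbnl1. Celf2 had -0.28 (-0.44 to -0.12). Pax7-positive cells were 21.1% of the SKM-like cells of Het/tdT and 15.5% (11 of 71) of those of MKO/tdT, and Myog-high cells 43.7% (41.1 to 46.3) and 57.7% (45.4 to 69.4). The counting intervals overlapped for both stages, for Myog-high cells only between 45.4 and 46.3%. Overlap does not show a like mix of stages, and the ratios over all SKM-like cells hold any difference in it. Within the Myog-high cells alone, Rbm24 was at -0.06 (-0.19 to 0.06), Celf2 at -0.30 (-0.51 to -0.11) and Mbnl2 at 0.48 (0.10 to 0.85). Within the Pax7-positive cells Rbm24 was higher in MKO/tdT, at 249 CPM against 103 CPM, a log2 ratio of 1.27 (0.80 to 1.71) that rests on 45 UMIs from 11 cells of MKO/tdT. Of the related list, Rbm38, an RNA-binding protein of muscle and blood cells, was at 20.1 CPM in Het/tdT and 43.7 CPM in MKO/tdT (1.12, 0.68 to 1.54). It was the only one of 14 related genes that was higher past the fold, and the 3 lower ones, Celf4, Msi1 and Rbpms, had 4 UMIs each in MKO/tdT.

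In Mesen-like cells 2 of 9 regulators were past the fold, Celf2 and Rbm24, both lower in MKO/tdT, against 9.94% of 13898 genes. Celf2 was at 163 CPM (160 to 167) and 99.5 CPM (95.9 to 103), a log2 ratio of -0.72 (-0.78 to -0.65). Mbnl2 was higher in MKO/tdT by less than the fold, at 326 CPM (321 to 331) and 398 CPM (391 to 405), a log2 ratio of 0.29 (0.25 to 0.32). Mbnl3 was at 16.6 and 11.3 CPM (-0.56, -0.75 to -0.37), just short of it, while Mbnl1, Celf1 and Rbfox2 had log2 ratios of 0.05, -0.11 and -0.09. The median was -0.11 over the 9 regulators and -0.06 over all genes. Of the related list 3 were higher and 0 lower, Khdrbs2 (0.74), Rbm38 (0.68) and Srrm4 (0.67).

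Mesen-like cells are a mixture, so Celf2 and Mbnl2 were also read in 7 subsets set by UMIs of fibroblast genes (at least 1 UMI of both genes of a pair, or at least 2 of Foxd1 or Twist2). The subsets were chosen after values were seen, can share cells, and hold 4086 (60.3%) of the 6773 Mesen-like cells. Celf2 was lower in MKO/tdT in all 7. The difference was past 1.5-fold in the Twist2, the Osr1 and Meox2 and the Hoxd13 and Tbx3 subsets. In the other subsets Celf2 was short of that fold. It was at 257 and 180 CPM in cells with Dpt and Clec3b, genes of fascia-type fibroblasts, and at 229 and 144 CPM in cells with Twist2, a dermal gene. In cells with Tnmd and Scx, genes of tendon, it was at 86.4 and 60.3 CPM. The log2 ratios ran from -1.07 (-1.82 to -0.34, Hoxd13 and Tbx3, with 42 and 68 cells) to -0.25 (-0.50 to -0.01, Ngfr and Ebf2). Mbnl2 was higher in MKO/tdT in all 7, with log2 ratios from 0.07 (-0.05 to 0.19, Tnmd and Scx) to 0.43 (0.16 to 0.71, Hoxd13 and Tbx3). Both genes share the 2 libraries over all subsets, so the 7 subsets are not replicates.

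**Figure D3:**
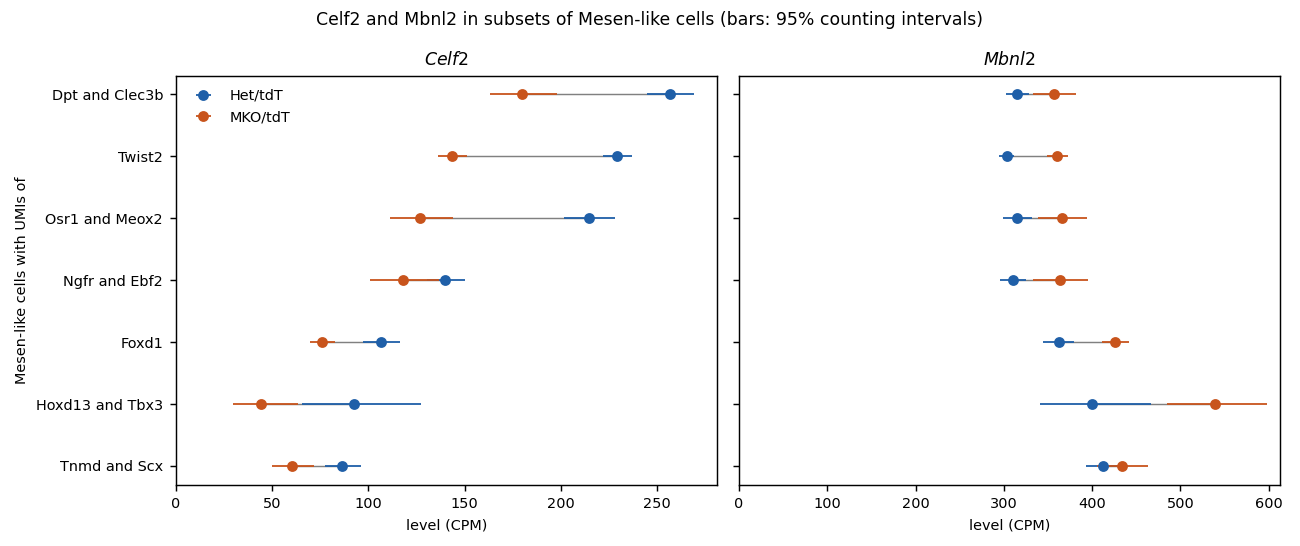
Levels (CPM, x axis from 0) of Celf2 and Mbnl2 in 7 subsets of Mesen-like cells, named by the genes whose UMIs set them (y axis), in Het/tdT (blue) and MKO/tdT (orange) with 95% counting intervals. In every subset Celf2 is lower and Mbnl2 higher in MKO/tdT, and the intervals overlap for Mbnl2 in the Tnmd and Scx subset and for Celf2 in the Ngfr and Ebf2 subset.

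Across the remaining classes at most 2 regulators were past the fold, and Rbm24 was among them in each class that had any. There were 2 of 7 in Chon-like cells (Celf2 and Rbm24, background 7.17%), 2 of 7 in Endo-like cells (Mbnl3 and Rbm24, 7.96%), 1 of 8 in Neu-like cells (Rbm24, 6.98%), 1 of 8 in Epi-like cells (Rbm24, 16.9%), 0 of 6 in Immu-like cells (24.4%) and 0 of 5 in Sch-like cells (13.1%). All 6 were lower in MKO/tdT before the scaling to Myog described below. After it, Rbm24 stayed lower in Epi-like cells of MKO/tdT but not in Endo-like and Neu-like cells. Chon-like cells then had 9.14 and 7.51 CPM of Celf2 and 1.62 and 1.54 CPM of Rbm24. In Immu-like and Sch-like cells Rbm24 had fewer than 50 UMIs and was not counted. Its log2 ratios there were -3.85 (-5.33 to -2.56, on 7 UMIs in MKO/tdT) and -1.87 (-4.32 to -0.01, on 3). Celf2 was lower in 6 of 8 classes with the interval below 0 in each of the 6, and Endo-like (0.15, -0.09 to 0.39) and Epi-like cells (0.03, -0.45 to 0.53) were the others. In Neu-like cells Celf2 was at 291 CPM (275 to 308) and 216 CPM (206 to 227), a log2 ratio of -0.43 (-0.54 to -0.32). Mbnl2 was higher in 7 of 8 classes, with the interval above 0 in 4 (Mesen-like, Chon-like, Sch-like and Neu-like), and its ratios ran from -0.16 in Immu-like to 0.37 in Sch-like cells. Mbnl3 was lower in 6 of 6 classes with enough UMIs, from -0.69 to -0.02, with the interval below 0 in 3 of them. The -0.69, in SKM-like cells, rests on 4 UMIs in MKO/tdT. Mbnl3 lies on chromosome X, and both libraries had the Y-linked Ddx3y at like levels (117 and 119 CPM) and 16 and 17 UMIs of Xist. Rbfox2 was lower in 7 of 8 classes, with log2 ratios down to -0.22 and the interval below 0 in 3 of them. One of the 3, Mesen-like, was at -0.01 with cells thinned to 2000 UMIs. The median log2 ratio over all genes ran from -0.16 in Immu-like to 0.04 in Sch-like cells, where Rbfox2 was at -0.17 and -0.21. A small ratio below 0 is therefore not particular to a regulator in some classes. All classes come from the same 2 libraries, so these tallies over classes do not count replicates. Among the related genes, Qk was lower in Immu-like cells (161 and 91.5 CPM, -0.81, -1.01 to -0.61) and Nova2 in Neu-like cells (75.3 and 49.8 CPM, -0.60, -0.82 to -0.38).

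**Figure D4:**
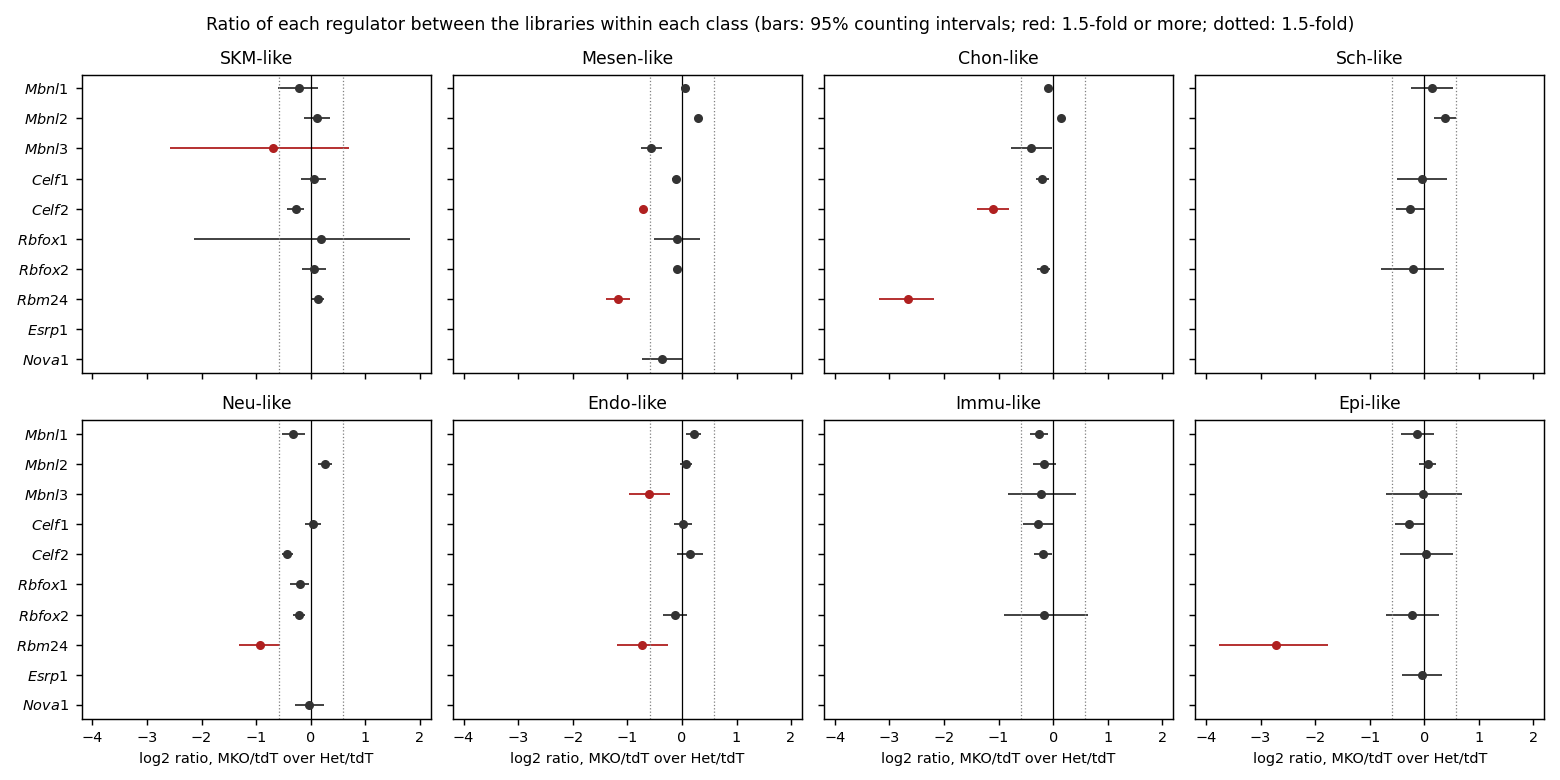
log2 ratio of MKO/tdT over Het/tdT (x axis) for each regulator with at least 50 UMIs in a class (1 panel per class), with 95% counting intervals. Red points are 1.5-fold or more, dotted lines mark that fold. Outside SKM-like cells Rbm24 lies past the fold to the left wherever it is shown, from -0.72 in Endo-like to -2.71 in Epi-like cells. It lies near 0 within SKM-like cells, and Celf2 is past the fold in Mesen-like and Chon-like cells.

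Rbm24 outside muscle has to be read beside other muscle RNA. Myog, which these cells are not known to express, was found in all 7 other classes of Het/tdT, from 9.62 CPM in Endo-like to 27.8 CPM in Neu-like cells, and was at most 1.90 CPM in the other 7 classes of MKO/tdT. The muscle fusion gene Mymx moved likewise, at 3.11 and 0.484 CPM in Mesen-like cells. In Het/tdT there were 0.770 Rbm24 UMIs per Myog UMI in SKM-like cells and 0.600 to 1.24 in the other 7 classes. In Chon-like cells of Het/tdT the Myog level times the muscle ratio gives 12.3 of the 13.9 CPM of Rbm24. In MKO/tdT the ratio was 0.615 in SKM-like cells but 21.3 in Neu-like (128 Rbm24 and 6 Myog UMIs), 11.2 in Endo-like (112 and 10) and 3.98 in Mesen-like cells (219 and 55), and 0.700 in Immu-like cells (7 and 10). With the Myog-scaled part taken off, Rbm24 was at 8.61 CPM in Het/tdT and 15.2 CPM in MKO/tdT in Neu-like cells, 4.47 and 6.80 CPM in Endo-like cells, and 5.63 and 6.41 CPM in Mesen-like cells. In these 3 classes Rbm24 was not lower in MKO/tdT after this scaling. In Epi-like cells it was lower, at 9.77 and 3.56 CPM, on 45 and 12 Rbm24 UMIs and 39 and 4 Myog UMIs. In Chon-like cells 1.62 and 1.54 CPM were left and in Sch-like cells 1.55 and 3.81 CPM. In Immu-like cells of Het/tdT the scaled part (15.1 CPM) was above the 11.7 CPM of Rbm24 measured, which left -3.32 CPM, against 0.0990 CPM in MKO/tdT. The values left depend on the ratio used, 0.770 for Het/tdT, while the other 7 classes there had 0.600 to 1.24. They carry no intervals, and the source of the Rbm24 and Myog UMIs outside muscle was not tested.

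The same scaling was applied to Celf2. In Mesen-like cells the Myog-scaled part was 7.11 of 163 CPM in Het/tdT and 0.546 of 99.5 CPM in MKO/tdT, which left 156 and 99.0 CPM. In Neu-like cells 278 and 216 CPM were left. In Chon-like cells the scaled part was 7.62 of 16.8 CPM in Het/tdT and 0.306 of 7.81 CPM in MKO/tdT, and 9.14 and 7.51 CPM were left, a difference under the 1.5-fold limit. In Epi-like cells, where the levels were near-equal, the scaled part was 12.2 of 37.2 CPM in Het/tdT but 0.428 of 38.0 CPM in MKO/tdT, so that less was left in Het/tdT than the 37.6 CPM left in MKO/tdT.

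**Figure D5:**
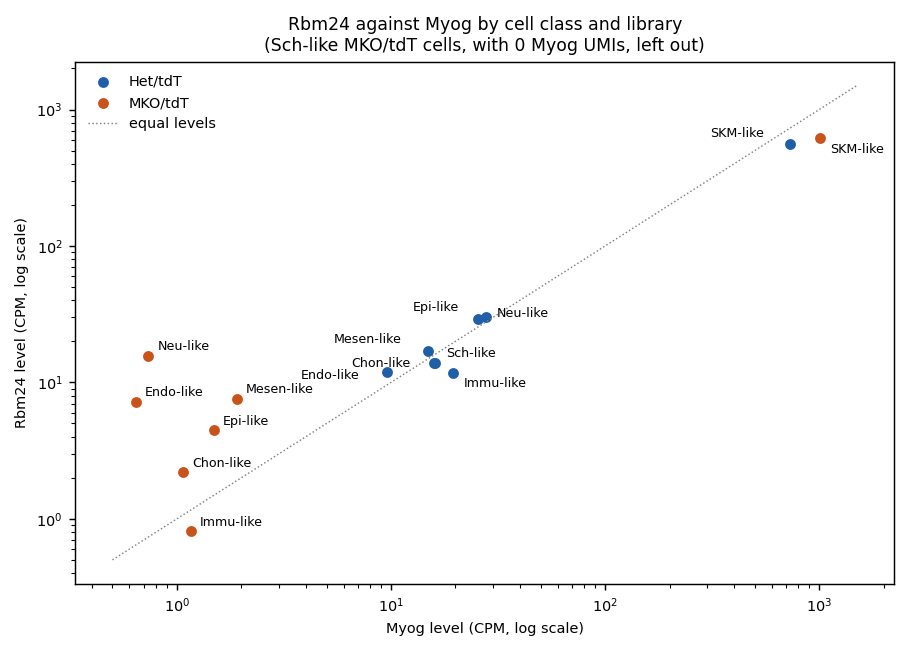
Rbm24 level against Myog level (CPM, both axes on log scales) for each class in Het/tdT (blue) and MKO/tdT (orange), with equal levels as a dotted line. All classes of Het/tdT lie near the line, while Neu-like, Endo-like and Mesen-like cells of MKO/tdT lie above it, with 21.3, 11.2 and 3.98 Rbm24 UMIs per Myog UMI.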

How the data were processed

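Single cells of E14 embryos had been sequenced as 1 library per genotype with 10x Genomics 3′ chemistry. The authors counted UMIs per gene with Cell Ranger 5.0.0 (per the file headers; the labels name Cell Ranger 3.1.0, STAR and Seurat 3.1.1) on mm10 without introns, and joined the libraries into 1 table after reads had been down-sampled to like depth. The deposited values are raw counts. The members, lists and class markers were chosen with earlier results of these data known.

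Python 3.11.15, NumPy 2.4.6, SciPy 1.17.1 and pandas 2.3.3 were used. A cell was kept if its log10 UMIs and log10 genes lay at most 2 SD from its library's mean and mitochondrial UMIs were at most 10%, which left 151555303 UMIs for Het/tdT and 122938843 for MKO/tdT. Doublets were not called. UMIs were summed per class and library and given as CPM with exact Poisson 95% intervals. Ratios have intervals from the binomial split of the counts, and shares Clopper-Pearson intervals. A count of 0 was set to a floor of 3 counts for the fold. Cells were thinned to 2000 UMIs for shares. The rule for named genes took every member, the 3 highest and 3 lowest related genes past the fold, and the 3 most alike genes per member, of which 2 are not reported here. Coordinates are from GENCODE vM21 (GRCm38). The intervals were tested on simulated Poisson counts, which hold counting error only and no variation between cells or libraries. Alternatives changed the cell filter, class limits, denominator, depth and averaging.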

Additional observations from a re-analysis of the deposited data

Results flagged for a closer look

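The log2 ratio of MKO/tdT over Het/tdT had opposite signs between classes for 2 regulators, each with counting intervals on 1 side of 0. The difference between classes was not tested, since each genotype is 1 library. Mbnl1 was higher in MKO/tdT in Endo-like cells (0.22) and lower in Chon-like (-0.0906), Immu-like (-0.27) and Neu-like cells (-0.32). None of these 4 reached 1.5-fold.

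Rbm24 was slightly higher in MKO/tdT in SKM-like cells (0.14) and lower in Mesen-like (-1.17), Chon-like (-2.66), Endo-like (-0.72), Epi-like (-2.71) and Neu-like cells (-0.94). Myog UMIs outside muscle moved in the same direction between the libraries, as given above.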

How the results depend on the processing

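Each count of regulators past the fold was recomputed under 8 alternatives, of which 7 were fixed at the outset and 1, leaving out barcode sequences found in both libraries, was chosen after seeing the data. The counts over all kept cells (4 to 5), in Mesen-like cells (2 to 3) and between the stages in Het/tdT (5 to 7) stayed within 1.5 times. Changes of class limits cannot alter values over all kept cells. Celf2 and Rbm24 were past the fold in every setting over all kept cells and in Mesen-like cells. Between the stages of Het/tdT, Rbm24, Celf1, Celf2, Rbfox2 and Mbnl2 were past it in every setting. No alternative takes off muscle RNA found outside muscle, so the settings cannot show how far Rbm24 in Mesen-like cells depends on it. With the Myog-scaled part taken off, Rbm24 there was at 5.63 CPM in Het/tdT and 6.41 CPM in MKO/tdT. In SKM-like cells the single count, Mbnl3, became 0 with a 5% mitochondrial limit and 0 with the mean over cells of CPM. Thinned to 2000 UMIs, Mbnl3 there turned to a log2 ratio of 0.86, and the 1 gene past the fold was Mbnl1. Between the stages of MKO/tdT the count of 3 became 1 after thinning and 5 with haemoglobin, mitochondrial and ribosomal protein genes left out of the denominator. Thinned, Celf1 (0.91), Mbnl2 (-1.44) and Rbm24 (2.12) were each still past 1.5-fold there, but Celf1 and Mbnl2 fell under the minimum of 50 UMIs. Rbfox2 there turned to -0.31 when thinned, and Rbm24 was at 2.42 with classes at 2 markers and a lead of 1. For the other changes the cause was not tested. Of 312 recomputed ratios, 275 stayed inside their counting interval, including those over all kept cells that class limits cannot change. No paired analysis was possible because each genotype has 1 library and no result comes from a test. With 71 SKM-like cells in MKO/tdT, differences of Mbnl3, Rbfox1, Esrp1 and Nova1 were not detectable there at this depth.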
